A study of Mus musculus with 12 samples.

Results

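Mouse chromosome 8 carried 1274 intervals of RNA signal in which no repeat family covered 50% or more of the length and whose mean signal over 6 libraries was at least 1. They were 1274 of the 74299 intervals in the table, and of the 3718 intervals on chromosome 8, where 1375 were free of a repeat by this rule and 101 of those fell below the minimum signal. The libraries came from the chromatin-associated RNA of E14TG2a mouse embryonic stem cells, enriched with an antibody against N6-methyladenosine (m6A). There were 2 libraries each of cells carrying Alkbh5 del-cIDR (ΔcIDR), a deletion within Alkbh5 in a series whose title speaks of intrinsically disordered regions, of cells with a knockout of Alkbh5 (KO) and of wild-type cells (WT). All cells grew in serum with LIF, PD0325901 and CHIR99021, inhibitors of MEK and of GSK3 that hold stem cells in an undifferentiated state. Columns labelled KI were taken to be ΔcIDR because they are the genotype left over, and both KO columns carry the name KO6, so the KO libraries may come from 1 line. The chromosome was selected on the signal of these same 6 libraries, which differs there between genotypes, so the size of that shift is given as a description, with no test. The test was kept for a separate question, which intervals departed from the shift of their chromosome.

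N6-methyladenosine is a common internal mark of RNA, written by a methyltransferase complex around METTL3 and METTL14 and removed by the demethylases ALKBH5 and FTO. Part of it lies on RNA that stays at chromatin, such as nascent transcripts, where it is known to affect RNA stability and the state of nearby chromatin. Mouse embryonic stem cell lines are known to gain whole chromosomes in culture, and chromosome 8 is among those gained most often. With 0 input columns analysed here, unequal signal in these bulk samples can reflect more m6A, more RNA, more gene copies or more cells that carry such copies, and these cannot be told apart here.

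Each library held 13234793 to 15145206 reads in intervals, and 814 to 1870 reads of the m6A-modified spike-in set its deposited scale. On that scale a median log2 signal was taken over the repeat-free intervals on the other autosomes. It was 4.97 and 4.93 in ΔcIDR, 4.24 and 3.69 in KO, and 4.32 and 4.47 in WT libraries. The libraries thus differed over the other autosomes as a whole, and whether this came from the scaling or from the RNA was not tested. Every shift below is therefore relative to the median of the other autosomes, which was subtracted from each library. Without this step all 3 shifts had the opposite sign. KO over WT was -0.13 ± 0.28, within its SE of 0, ΔcIDR over WT was 0.38 ± 0.060 and ΔcIDR over KO was 0.51 ± 0.28 (log2, ± SE). The labels do not say whether replicates came from separate cultures, and p-values then measure only the spread between these samples. No annotation of the files' build (GRCm39) was used here, so intervals are given by position, without gene names, and neither Alkbh5 itself nor stem cell markers were checked.

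The 1274 intervals lay between 3.20 and 130.03 Mb and covered 615 kb in all. They were 200 to 3405 bp long, with a median of 376.5 bp. The 10 brightest carried 15.9% of their summed signal. Reads per interval, averaged over the libraries, ran from 8 to 32942 with a median of 232 and quartiles of 69.7 and 595. No repeat base at all was found in 856 of them (67.2%). Among the others the family with the largest cover was a simple repeat in 185, a low-complexity stretch in 51, SINE/Alu in 50, SINE/B4 in 28 and SINE/B2 in 22. At the minimum signal the nearest interval inside was chr8:91633070-91633270 with a mean of 1.00, and the nearest outside was chr8:107157289-107157489 with 0.997. At the limit on repeat cover the nearest inside was chr8:20707388-20707679, 49.8% of it SINE/Alu, and the nearest outside was chr8:20025990-20026280 with 50% in the same family.

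Chromosome 8 took a larger share of the reads in KO than in WT libraries and a smaller share in ΔcIDR libraries. Of all reads in repeat-free autosomal intervals, chromosome 8 held 7.39% and 7.32% in KO libraries, 5.54% and 5.53% in ΔcIDR libraries and 6.19% and 6.24% in WT libraries. The group means were 7.36% ± 0.043 in KO, 5.53% ± 0.0036 in ΔcIDR and 6.21% ± 0.032 in WT (SD, n = 2 each). The 95% Wilson interval of each share, which covers counting error only, was narrow beside these gaps, for example 7.37% to 7.40% in KO replicate 1 and 6.22% to 6.25% in WT replicate 2. The 3 genotypes did not overlap.

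The same order was seen in the typical interval. For each interval the centred log2 signal was set against its own mean over the 6 libraries, and the median over the 1274 intervals was 0.26 in both KO libraries, -0.23 and -0.18 in ΔcIDR libraries, and -0.016 and -0.053 in WT libraries. KO lay above WT by 0.30 ± 0.018 (log2, ± SE from library medians), which is 1.23-fold. ΔcIDR lay below WT by a difference of -0.17 ± 0.031, a ratio of 0.888, and below KO by a difference of -0.47 ± 0.025, a ratio of 0.723. Centred on all tested intervals, repeats included, ΔcIDR over WT was -0.035 ± 0.077, within its SE of 0, and KO over WT and ΔcIDR over KO were 0.22 ± 0.058 and -0.25 ± 0.083. With the repeat-free centre the WT libraries lay between the mutants. ΔcIDR and KO thus stood on opposite sides of the same WT libraries, which both comparisons share.

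Most of the intervals followed the shift. In KO over WT, 944 of the 1274 (74.1%) were higher in KO and 330 were lower, beside 51.6% higher on the other autosomes. The quartiles of the chromosome's intervals were -0.011 and 0.58 around a median of 0.29 (log2). In ΔcIDR over WT, 310 (24.3%) were higher and 964 were lower, beside 54.7% higher elsewhere, with quartiles of -0.36 and -0.0044. In ΔcIDR over KO, 254 (19.9%) were higher and 1020 were lower, beside 49.9% higher elsewhere, with quartiles of -0.83 and -0.11. The spread among the intervals was no wider than elsewhere, and the SD of their differences was 0.48, 0.35 and 0.61 in KO over WT, ΔcIDR over WT and ΔcIDR over KO, against 0.55, 0.37 and 0.69 on the other autosomes.

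**Figure D1:**
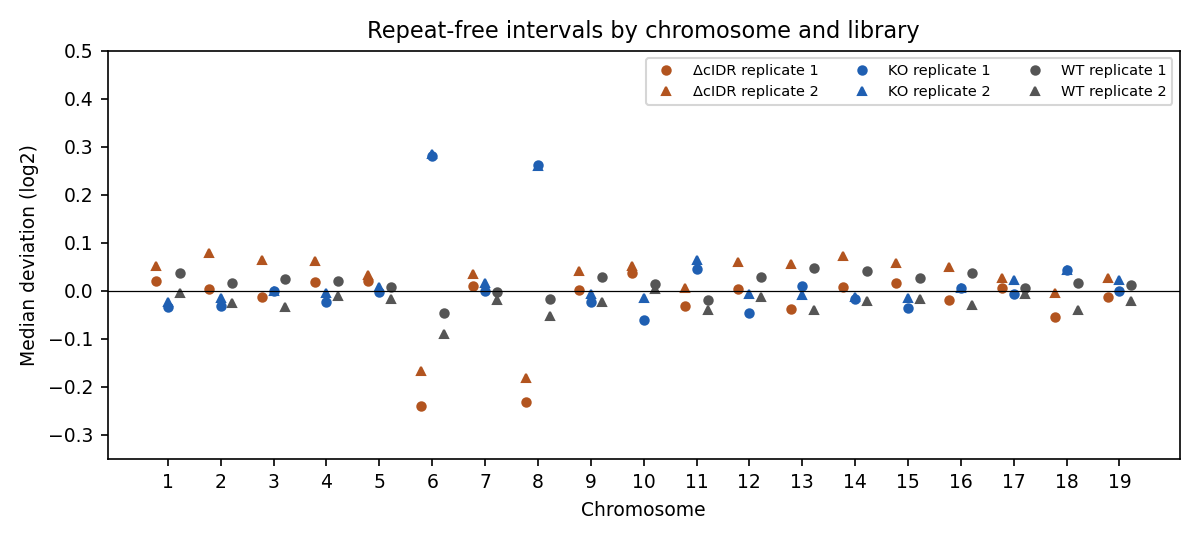
Median deviation (log2) of repeat-free intervals on each autosome, 1 point per library, after each library was centred on the other autosomes. Chromosomes 8 and 6 stand apart, with both KO libraries near 0.26 on chromosome 8, the ΔcIDR libraries at -0.23 and -0.18, and the WT libraries just below 0.

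Only chromosome 6 resembled chromosome 8 among the autosomes plotted by library. Its 1094 repeat-free intervals shifted by 0.35 ± 0.022 in KO over WT, -0.14 ± 0.043 in ΔcIDR over WT and -0.49 ± 0.037 in ΔcIDR over KO. The differences between the shifts of chromosomes 6 and 8 were not tested. The other 17 autosomes ranged from -0.046 to 0.084 in KO over WT, from -0.017 to 0.046 in ΔcIDR over WT and from -0.072 to 0.081 in ΔcIDR over KO. Each of these ranges stayed clear of the chromosome 8 value. Outside the autosomes, the 25 repeat-free intervals of chromosome Y had the same order of genotypes. They gave 0.75 ± 0.053 in KO over WT and -0.90 ± 0.015 in ΔcIDR over WT. The 594 on chromosome X gave 0.016 ± 0.037 and 0.0098 ± 0.060.

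The shift did not belong to dim, short or partly repetitive intervals alone. Each class of chromosome 8 intervals was set against intervals of the same class on the other autosomes. In the 425 intervals with the fewest reads (median 41.5 reads per library) KO exceeded WT by 0.29 ± 0.015, in the 424 of middle depth (median 232) by 0.29 ± 0.019, and in the 425 with the most reads (median 968) by 0.28 ± 0.0050. ΔcIDR over WT was -0.20 ± 0.012, -0.19 ± 0.019 and -0.20 ± 0.0033 in the same classes, low depth to high. The size of the shift was thus nearly flat over reads per interval once depth was matched. Without the match ΔcIDR over WT ran from -0.32 in the dimmest class to -0.097 in the brightest, and the other autosomes ran in parallel, from -0.12 to 0.10.

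The size varied more with length than with depth, a contrast that was not tested. KO over WT was 0.33 ± 0.021 in the 460 intervals under 300 bp, 0.27 ± 0.0076 in the 718 of 300 bp or more but under 1000 bp and 0.22 ± 0.0088 in the 96 of 1000 bp or more. ΔcIDR over WT was -0.21 ± 0.0068, -0.18 ± 0.0013 and -0.18 ± 0.011 in these classes. Longer intervals kept the direction in both mutants at a smaller size. By repeat cover, KO over WT was 0.28 ± 0.0055 in the 856 intervals without a repeat base, 0.27 ± 0.030 in the 247 with up to 20% cover and 0.37 ± 0.031 in the 171 with 20% to 50%. The 723 chromosome 8 intervals of sufficient signal that the rule left out, with cover of 50% or more, were set against repeat-covered intervals elsewhere and gave 0.15 ± 0.033 in KO over WT and -0.13 ± 0.030 in ΔcIDR over WT.

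**Figure D2:**
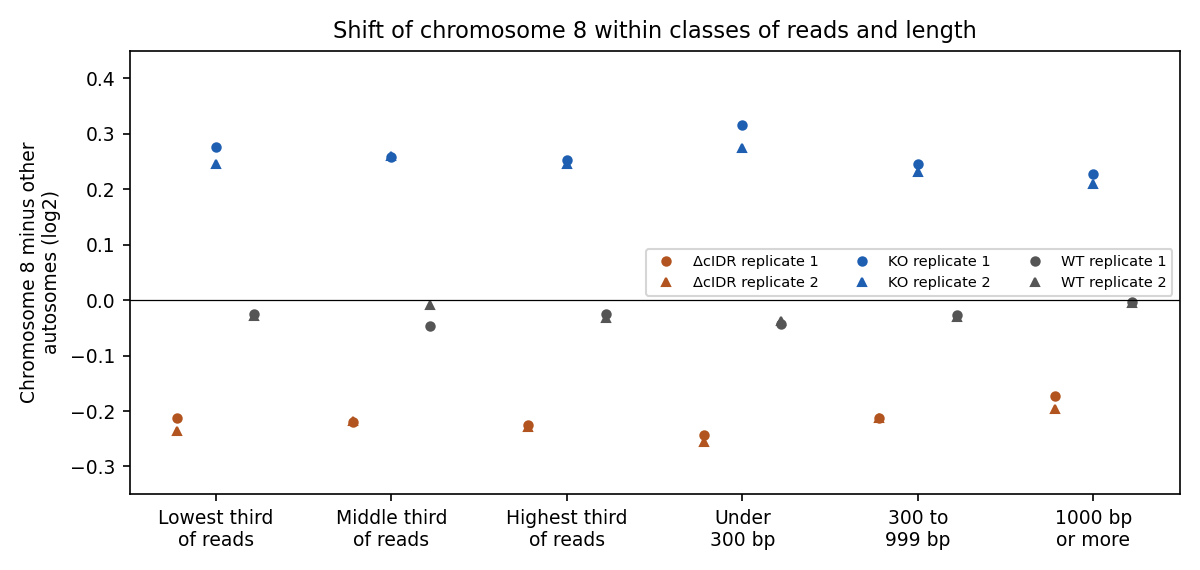
Median deviation (log2) of chromosome 8 intervals minus that of intervals of the same class on the other autosomes, 1 point per library, for 3 classes of reads and 3 of length. Over the classes shown the KO libraries lie between 0.21 and 0.32, the ΔcIDR libraries between -0.26 and -0.17, and the WT libraries between -0.046 and -0.0027.

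At a scale of 10 Mb the shift kept its sign along the chromosome in the well-filled bins. In each of the 12 bins with at least 20 intervals, KO was above WT, by 0.095 to 0.40, and ΔcIDR was below WT, by differences of -0.24 to -0.11. The libraries of the groups did not overlap in any of the 12 bins in any of the 3 comparisons. The bins were not level, however. KO over WT was lowest in the first 10 Mb, at 0.095 ± 0.011 over 41 intervals, and second lowest between 30 and 40 Mb, at 0.13 ± 0.024 over 58. It was highest between 80 and 90 Mb, at 0.40 ± 0.035 over 136 intervals. ΔcIDR over WT was farthest from 0 between 40 and 50 Mb, at -0.24 ± 0.056 over 85 intervals, and nearest to 0 between 30 and 40 Mb, at -0.11 ± 0.073. Bins with fewer intervals, 13 between 50 and 60 Mb and 1 beyond 130 Mb, are left out of these ranges. The bin from 50 to 60 Mb gave 0.52 ± 0.11 in KO over WT. Its ΔcIDR over WT value was 0.032 ± 0.029, on the other side of 0 and with overlapping libraries. The last bin gave -0.70 ± 1.1 in KO over WT and -0.68 ± 0.57 in ΔcIDR over WT.

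Repeat loci that lie outside all intervals gave a second set of positions on the same chromosome in the same libraries. Over 13457 such loci KO exceeded WT by 0.33 ± 0.012, ΔcIDR differed from WT by -0.18 ± 0.0059 and from KO by -0.51 ± 0.013. The median deviation was 0.29 and 0.31 in KO, -0.22 and -0.21 in ΔcIDR, and -0.036 and -0.031 in WT libraries. These loci share libraries, and may share transcripts, with the intervals, so they are no independent replicate. Their first 10 Mb had the same low KO over WT value, 0.095 ± 0.024 over 390 loci. Between 30 and 40 Mb, where the intervals were low, the loci gave 0.39 ± 0.032 over 425.

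**Figure D3:**
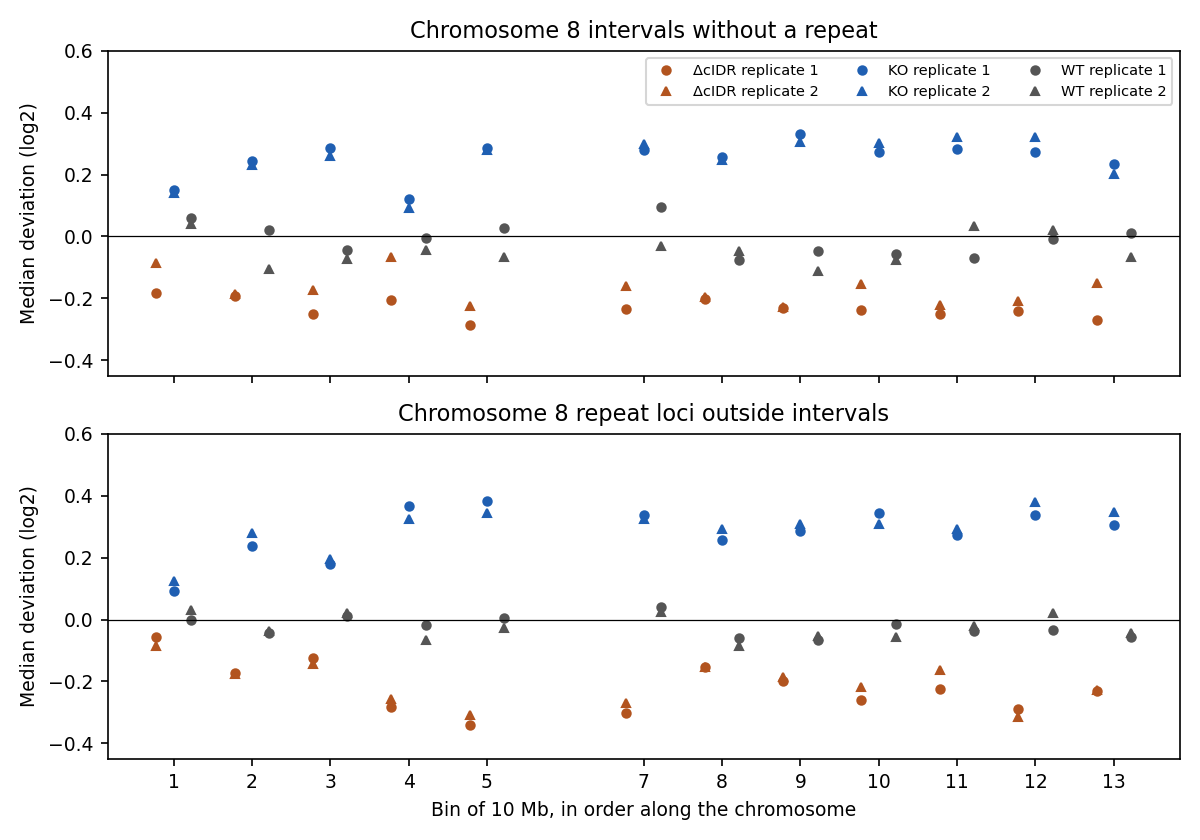
Median deviation (log2) per library in bins of 10 Mb along chromosome 8, for the repeat-free intervals (upper) and for repeat loci outside intervals (lower), without the thin sixth bin. KO libraries lie above WT libraries and ΔcIDR libraries below them in each bin shown, and the gap between KO and WT is narrowest in the first bin, at 0.095 in both sets.

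Bins of 5 Mb showed finer structure. Of the 20 such bins with at least 20 intervals, 19 had KO above WT, within a full range of -0.066 to 0.52, and 19 had ΔcIDR below WT, within a range of -0.47 to 0.0021. Between 25 and 30 Mb KO over WT was 0.099 ± 0.014 in the intervals and 0.057 ± 0.016 in the repeat loci, beside 0.46 ± 0.026 and 0.37 ± 0.0056 in the 5 Mb before. This low stretch was thus seen in both sets of positions. Between 65 and 70 Mb the 2 sets differed, with 0.066 ± 0.035 over 30 intervals but 0.23 ± 0.018 over 239 repeat loci. Among the intervals of these 20 bins KO over WT was highest between 40 and 45 Mb, at 0.52 ± 0.085 in 26 intervals, where 430 repeat loci gave 0.49 ± 0.048. The repeat loci were highest between 50 and 55 Mb, at 0.94 ± 0.056 over 44 loci, a bin with only 6 intervals, which gave 0.64 ± 0.18. There ΔcIDR over WT was not below 0, at 0.037 ± 0.041 in the loci and 0.0048 ± 0.15 in the intervals. ΔcIDR over WT was farthest from 0 between 115 and 120 Mb, at -0.47 ± 0.051 in 42 intervals and -0.42 ± 0.057 in 1012 repeat loci. KO over WT was 0.27 ± 0.056 in that bin's intervals, so the bin of the deepest ΔcIDR value was not a bin of unusual KO value.

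The exception in both comparisons was the same bin, 35 to 40 Mb. Its 26 intervals gave -0.066 ± 0.095 in KO over WT and 0.0021 ± 0.12 in ΔcIDR over WT, and there the libraries of the genotypes overlapped. Of these intervals 21 lay below the chromosome's shift in KO over WT, which follows from picking the bin for its low median. The test described next called 3 of the 26 lower, beside 5.16% of all intervals tested. The 26 intervals had a median of 131 reads, and 12 of them lay within 10 kb of the one before, so they are few separate places. Repeat loci in the same 5 Mb gave 0.22 ± 0.069 in KO over WT over 153 loci and -0.19 ± 0.092 in ΔcIDR over WT.

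Intervals that broke from the shift were then tested. In this test each library was centred on the median of the interval's own chromosome, so a value of 0 means that an interval moved with the chromosome's median level, and positive values mean that it lay above it. In this test the shift is that movement of the median level. The chromosome's own median level moved by 0.24 in KO over WT, -0.19 in ΔcIDR over WT and -0.43 in ΔcIDR over KO, which is what the centring took out. These differ a little from the shifts given above, which are medians of each interval's own deviations, and the median interval therefore departed by 0.058, 0.036 and -0.039 in the same order. limma was fitted across all 37759 intervals with a mean signal of at least 1, and p-values were adjusted over all of them by the Benjamini-Hochberg method, with calls at 0.05.

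In KO over WT, 155 of the 1274 intervals (12.2%) departed from the shift, against a background of 11.7% of all intervals tested. On the other autosomes 2549 of 20454 repeat-free intervals (12.5%) departed from the centre of their chromosome. The share on chromosome 8 was thus close to the background. Of the calls 74 lay above the shift and 81 below it, beside background shares of 6.5% higher and 5.16% lower, repeats included. Among the 2549 repeat-free calls on the other autosomes 1244 lay above and 1305 below. All 155 had KO and WT libraries that did not overlap, but so did many intervals that were not called, so this does not set the calls apart. Called or not, 56 intervals lay at least 2-fold from the shift in either direction. Measured instead from the median of the differences, 4.95% lay that far away, beside 6.95% on the other autosomes. The smallest difference among the 155 calls was 0.41 in size. The count rested on both KO libraries, since it was 10 without KO replicate 1 and 13 without KO replicate 2. It was also 66 without WT replicate 2, and 102 with the centre taken from each interval's own 10 Mb bin.

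In ΔcIDR over WT limma called no interval, against a background of 0.162% of all intervals tested, and edgeR's quasi-likelihood test on whole reads called 0 as well. Of the 1274 intervals, 19 lay at least 2-fold from the shift in either direction. On the other autosomes 377 of the 20432 repeat-free intervals not called lay as far from their chromosome's centre. At an unadjusted p under 0.05 limma gave 141 of the 1274 (11.1%), a share that has no background at the same threshold here. At the adjusted threshold the background of calls was 0.0583% higher and 0.103% lower. On the other autosomes 22 of 20454 were called at that adjusted threshold. Without ΔcIDR replicate 1 the count was 2. The median standard error per interval was 0.21, which limits the size of departure that 2 libraries against 2 could detect.

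In ΔcIDR over KO, 331 of the 1274 intervals (26.0%) departed from the shift, against a background of 25.7%, and on the other autosomes the share was 25.8%. Of these 163 lay above the shift, against a background of 9.61% higher, and 168 below it, against 16.1% lower. That background includes intervals covered by repeats. Among the repeat-free calls on the other autosomes 2765 lay above and 2512 below, of 20454 intervals. The share again did not stand out from the rest of the genome. The count was 105 without KO replicate 1 and 96 without KO replicate 2. This comparison uses the same KO libraries as KO over WT.

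Calls depended on depth. For this count the intervals were cut by rank, which places 1 interval at a boundary otherwise than in the matched classes above. In the third with the fewest reads, 24 of 424 (5.66%) were called in KO over WT, in the middle 49 of 425 (11.5%) and in the third with the most reads 82 of 425 (19.3%). The median standard error fell with depth across these classes, at 0.35, 0.20 and 0.14. In ΔcIDR over KO the called shares were 21.0%, 26.1% and 30.8%.

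**Figure D4:**
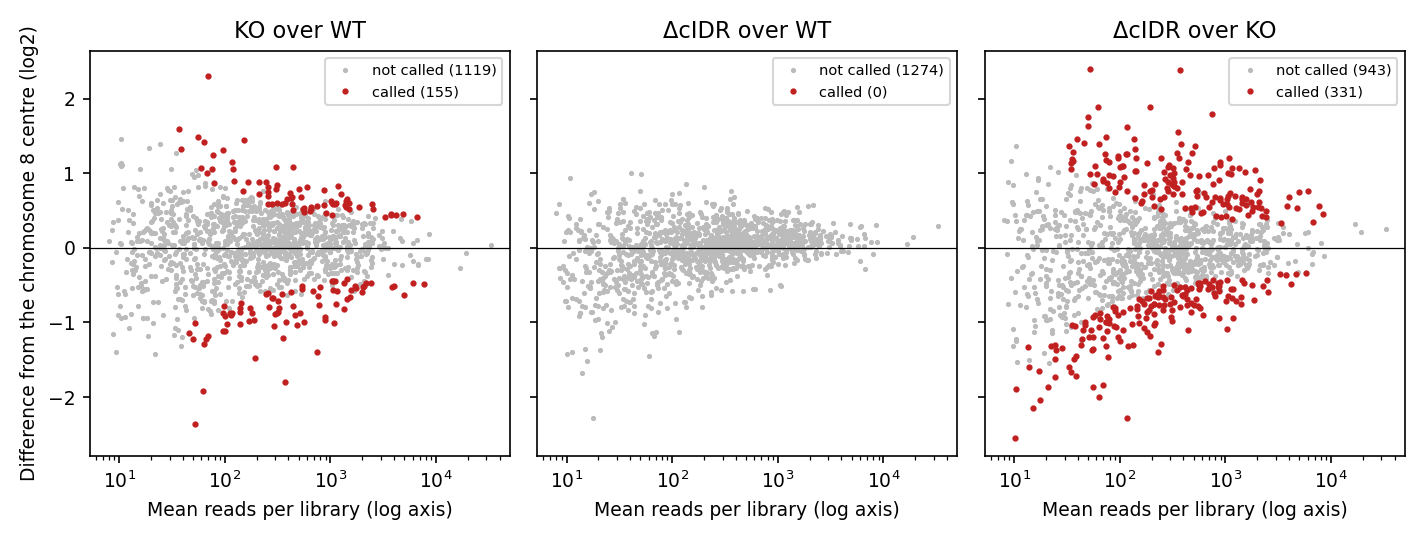
Difference of each chromosome 8 interval from the chromosome's centre (log2) against its mean reads per library (log axis), for KO over WT, ΔcIDR over WT and ΔcIDR over KO, with called intervals in red. The points narrow as reads increase, and the called intervals number 155, 0 and 331.

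Intervals called above and below the shift differed in length as a description. In KO over WT the 74 above had a median length of 383.5 bp and the 81 below had 549 bp, while those not called had 368 bp. Of the 81 below, 17.3% were 1000 bp or longer, against 5.41% of the 74 above. On the other autosomes the order was the other way round, with medians of 461.5 bp above and 430 bp below. In ΔcIDR over KO the 163 above had a median of 534 bp and the 168 below had 365 bp, and the order was the same on the other autosomes, with 452 bp above and 396.5 bp below. By position, the KO over WT calls numbered 0 above and 5 below among the 41 intervals of the first 10 Mb, 6 above and 14 below among the 121 from 20 to 30 Mb, and 16 above and 6 below among the 136 from 80 to 90 Mb. These bins were picked from the counts, and no difference between bins was tested against the background shares of 6.5% higher and 5.16% lower. By construction, a bin whose own median lies below that of the chromosome counts more intervals below the shift.

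The interval farthest above the shift in KO over WT was chr8:86427665-86427916, 251 bp with no repeat base. It had 145 and 163 reads in KO libraries, 27 and 35 in ΔcIDR libraries and 24 and 20 in WT libraries. Scaled to a common centre, the signal averaged 18.2 ± 2.5 in KO, 3.57 ± 0.62 in ΔcIDR and 2.72 ± 0.44 in WT (SD, n = 2 each). The KO libraries stood far above the other 4, which lay close together. The departure from the shift was 2.31 ± 0.31 (limma, adjusted p = 0.00107) in KO over WT and -1.84 ± 0.31 in ΔcIDR over KO (adjusted p = 0.00155), while ΔcIDR over WT was 0.47 ± 0.31 (adjusted p = 0.556). The KO over WT call held without each library in turn.

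The next 4 above the shift were short, at 200 to 307 bp. The interval chr8:88500227-88500443 had 71 and 77 reads in KO libraries and 12 and 24 in WT libraries, and chr8:88506829-88507136, in the same stretch, had 259 and 288 in KO and 72 and 86 in WT. Their departures were 1.60 ± 0.39 (limma, adjusted p = 0.0221) and 1.45 ± 0.25 (adjusted p = 0.0044). The interval chr8:95632351-95632551, 21.5% of it a simple repeat, had 112 and 102 reads in KO libraries against 23 and 35 in WT libraries, a departure of 1.49 ± 0.33 (adjusted p = 0.0135). The interval chr8:85712690-85712890 had 111 and 152 reads in KO libraries against 40 and 34 in WT libraries, a departure of 1.42 ± 0.35 (adjusted p = 0.0234). In each of these 4 the KO libraries lay above both WT libraries. Each lost its call when either KO library was left out, with adjusted p between 0.0518 and 0.236. The calls at chr8:88500227-88500443 and chr8:95632351-95632551 were also lost without WT replicate 1, and that at chr8:85712690-85712890 without WT replicate 2.

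The intervals farthest below the shift in KO over WT were longer, at 516 to 1144 bp. The interval chr8:126613868-126614825, 957 bp, had 17 and 8 reads in KO libraries, 94 and 51 in ΔcIDR libraries and 63 and 81 in WT libraries. It departed by -2.37 ± 0.37 in KO over WT (limma, adjusted p = 0.00239) and by 2.40 ± 0.37 in ΔcIDR over KO (adjusted p = 8.8e-04), and ΔcIDR over WT was 0.030 ± 0.37 (adjusted p = 0.982). Both KO libraries were low, and the ΔcIDR and WT libraries overlapped. The interval chr8:83590159-83591025, 866 bp, had 29 and 17 reads in KO libraries, 91 and 66 in ΔcIDR libraries and 68 and 102 in WT libraries. It departed by -1.92 ± 0.32 (adjusted p = 0.00372) in KO over WT, which was lost without KO replicate 2 (adjusted p = 0.0517).

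The other 3 below the shift rested on more reads. The interval chr8:61124187-61125331, 1144 bp with no repeat base, had 128 and 152 reads in KO libraries, 515 and 637 in ΔcIDR libraries and 421 and 389 in WT libraries. Its centred signal averaged 16.6 ± 2.9 in KO, 66.3 ± 9.4 in ΔcIDR and 49.98 ± 4.5 in WT (SD, n = 2 each). KO was lowest and ΔcIDR highest, with no overlap among the 3 genotypes. The departures were -1.79 ± 0.19 in KO over WT (limma, adjusted p = 2.5e-04), 0.59 ± 0.19 in ΔcIDR over WT (adjusted p = 0.264) and 2.38 ± 0.19 in ΔcIDR over KO (adjusted p = 1.2e-05). The interval chr8:8670036-8671025, 989 bp, had 92 and 90 reads in KO libraries, 283 and 256 in ΔcIDR libraries and 243 and 188 in WT libraries, a KO over WT departure of -1.47 ± 0.21 (adjusted p = 0.00158). The interval chr8:23278810-23279326, 516 bp, had 403 and 364 reads in KO libraries, 906 and 1166 in ΔcIDR libraries and 939 and 733 in WT libraries, a departure of -1.40 ± 0.17 (adjusted p = 6.2e-04). These 3 calls held without each library in turn. The same 5 intervals were the 5 farthest above the shift in ΔcIDR over KO, a comparison that shares the KO libraries.

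**Figure D5:**
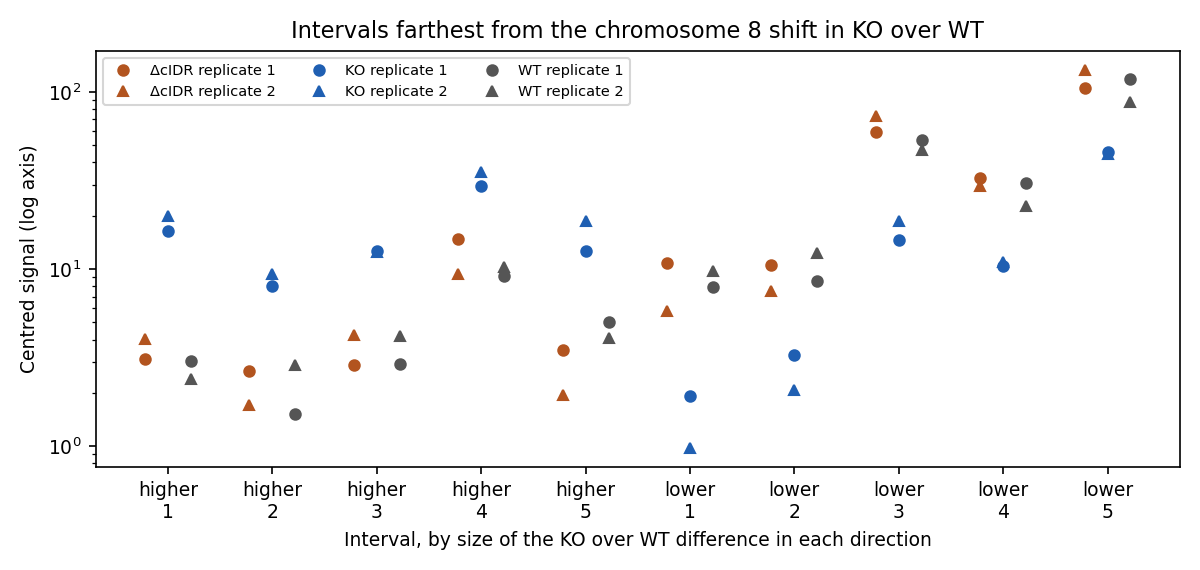
Centred signal (log axis) of the 5 intervals farthest above and the 5 farthest below the chromosome 8 shift in KO over WT, 1 point per library, in order of size. In the 5 marked higher the KO libraries stand above all others, and in the 5 marked lower they stand below them, as for the first of each, at 16.4 and 19.9 and at 1.93 and 0.979.

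Among the intervals farthest below the shift in ΔcIDR over KO, one rested on ample reads. The interval chr8:43851178-43851386, 208 bp and 32.7% simple repeat, had 31 and 37 reads in ΔcIDR libraries, 273 and 192 in KO libraries and 92 and 73 in WT libraries. It departed by -2.28 ± 0.27 in ΔcIDR over KO (limma, adjusted p = 1.6e-04), by 1.15 ± 0.27 in KO over WT (adjusted p = 0.0176) and by -1.13 ± 0.27 in ΔcIDR over WT (adjusted p = 0.142). The 3 genotypes did not overlap, with WT between the mutants. The interval chr8:85712690-85712890, named above, departed by -2.00 ± 0.35 (adjusted p = 0.00196), with 30 and 17 reads in ΔcIDR libraries.

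The other 3 in this group rested on few reads. The interval chr8:10599818-10600081 had 0 and 1 read in ΔcIDR libraries, 38 and 10 in KO libraries and 4 and 8 in WT libraries, so no fold is given for it. Its mean signal of 1.02 passed the minimum of 1 only through KO, with 3.76 in KO replicate 1 and less than 1 in every other library. Its selection thus used the group where it is high, and its call is no evidence of a departure. The interval chr8:108384215-108384415 had 0 and 8 reads in ΔcIDR libraries and 24 and 32 in KO libraries, a departure of -2.15 ± 0.64 (limma, adjusted p = 0.0292). That size moved with the pseudocount and with 1 library, to -3.28 with a pseudocount of 0.1, -1.29 with 2, -1.21 without ΔcIDR replicate 1 and -3.09 without ΔcIDR replicate 2. The interval chr8:122765969-122766169 had 1 and 4 reads in ΔcIDR libraries and 44 and 10 in KO libraries, a departure of -2.04 ± 0.55 (adjusted p = 0.0183), which was -1.32 with a pseudocount of 2 and also -1.32 without KO replicate 1. Each of the 3 lost its call without KO replicate 1, with adjusted p between 0.098 and 0.206. The calls at chr8:108384215-108384415 and chr8:122765969-122766169 were also lost without ΔcIDR replicate 1. The call at chr8:108384215-108384415 was lost without KO replicate 2 as well, and edgeR did not make it (adjusted p = 0.0605).

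No member was called in ΔcIDR over WT, and the 3 with the smallest p, chosen after their values were seen, were all higher in ΔcIDR. The interval chr8:15077325-15079836, 2511 bp, had 2431 and 2867 reads in ΔcIDR libraries and 1917 and 1859 in WT libraries, a departure of 0.57 ± 0.12 (limma, adjusted p = 0.117). The interval chr8:12447115-12448063 had 250 and 263 reads in ΔcIDR libraries and 138 and 168 in WT libraries, a departure of 0.82 ± 0.19 (adjusted p = 0.133). The interval chr8:85387990-85389005 had 1422 and 1575 reads in ΔcIDR libraries and 1044 and 1136 in WT libraries, a departure of 0.55 ± 0.13 (adjusted p = 0.141). In all 3 the ΔcIDR libraries lay above both WT libraries, without passing the threshold.

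The brightest interval was not called in any comparison. It was chr8:43748676-43749706, 1030 bp, with 39140 and 34315 reads in KO libraries, 30182 and 36263 in ΔcIDR libraries and 30317 and 27435 in WT libraries. Its departure was 0.043 ± 0.13 in KO over WT (limma, adjusted p = 0.872) and 0.29 ± 0.13 in ΔcIDR over WT (adjusted p = 0.391). Set against the other autosomes its ΔcIDR over WT value was 0.099, on the other side of 0 from the chromosome's shift. The second brightest was also the longest, chr8:123618832-123622237 at 3405 bp, with 21636 and 19849 reads in KO libraries, 22168 and 15162 in ΔcIDR libraries and 13623 and 22717 in WT libraries. Its WT libraries differed by more than the genotypes did, and its KO over WT departure was -0.066 ± 0.21 (adjusted p = 0.878). The second longest, chr8:23428109-23430907 at 2798 bp, split the replicates in the same way, with 1858 and 3042 reads in WT libraries and 2903 and 1881 in ΔcIDR libraries, against 2543 and 2388 in KO libraries.

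Of the 8 brightest intervals, 1 broke from the shift in KO over WT. The interval chr8:45403122-45405196, 2074 bp with no repeat base, had 7180 and 6936 reads in KO libraries, 7884 and 7968 in ΔcIDR libraries and 7669 and 8309 in WT libraries. Its centred signal averaged 831 ± 25 in KO, 912 ± 0.46 in ΔcIDR and 984 ± 21 in WT (SD, n = 2 each). It fell below the shift by a departure of -0.48 ± 0.11 in KO over WT (limma, adjusted p = 0.0144) and lay above it in ΔcIDR over KO, at 0.56 ± 0.11 (adjusted p = 0.00306). In ΔcIDR over KO 2 others of the 8 were also called, chr8:87587183-87588683 at 0.45 ± 0.12 (adjusted p = 0.0194) and chr8:108307287-108308112 at 0.35 ± 0.11 (adjusted p = 0.0317). The 2-fold and larger departures named above all belonged to dimmer intervals.

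Departures were shared between neighbours. Over 202 pairs of adjacent intervals less than 1 kb apart, the departures correlated across pairs with Pearson's r of 0.71 in KO over WT, 0.58 in ΔcIDR over WT and 0.78 in ΔcIDR over KO. Over 322 pairs 1 to 10 kb apart r was 0.56, 0.40 and 0.58, and over 527 pairs 10 to 100 kb apart it was 0.31, 0.21 and 0.35. Over the 222 pairs more than 100 kb apart it was 0.12, 0.066 and 0.094. The likeness declined with distance in each comparison. Adjacent intervals share libraries and often, perhaps, a transcript, so they are not separate observations.

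Runs of at least 3 neighbours less than 100 kb apart, all at least 2-fold on the same side of the shift, numbered 0 in KO over WT and in ΔcIDR over WT, and 5 in ΔcIDR over KO. The shared side within a run is set by this rule. Of the 136 intervals at least 2-fold from the shift in ΔcIDR over KO, only 20 were not called. The longest run, chr8:11035123-11058978, held 7 intervals over 23.9 kb, all 7 called and all higher in ΔcIDR, by 1.08 to 1.62. Their reads summed to 1427 and 1390 in ΔcIDR libraries, 766 and 711 in KO libraries and 903 and 1101 in WT libraries. WT lay between the mutants, without overlap, and none of the 7 passed the test in ΔcIDR over WT, with adjusted p of 0.166 to 0.62. In KO over WT, chr8:11036103-11037122 was among those called, at -0.90 ± 0.25 (limma, adjusted p = 0.0347).

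The other 4 runs were lower in ΔcIDR. The run chr8:48784810-48854374 held 4 intervals over 69.6 kb, all 4 called, at -1.87 to -1.13, with 219 and 190 reads in ΔcIDR libraries, 721 and 655 in KO libraries and 289 and 307 in WT libraries. The run chr8:79866547-79919331 held 3 intervals, all 3 called, with 112 and 82 reads in ΔcIDR libraries, 303 and 265 in KO libraries and 108 and 137 in WT libraries. In both of these runs KO stood high and the other genotypes were closer to each other. The run chr8:86427665-86470824 began at the interval farthest above the shift in KO over WT, and its 3 intervals had 82 and 105 reads in ΔcIDR libraries, 341 and 343 in KO libraries and 181 and 165 in WT libraries. The run chr8:12536598-12575304 held 3 intervals of which 1 was called, with 75 and 32 reads in ΔcIDR libraries, 176 and 163 in KO libraries and 78 and 105 in WT libraries. Summed over a run, the KO libraries were the highest in each of the 4. In the run chr8:86427665-86470824 this rested on its first interval, as the other 2 had KO over WT departures of -0.081 and 0.090. At chr8:86446226-86447179, the centred signal was 8.50 and 11.99 in KO and 3.24 and 3.78 in ΔcIDR libraries, against 9.86 and 8.53 in WT libraries, so KO and WT overlapped and ΔcIDR was low.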

How the data were processed

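The data were 6 libraries of m6A-immunoprecipitated chromatin-associated RNA, 2 per genotype, out of 12 samples in the series. Per the submitters' processing notes, the tools were bedtools, featureCounts, MACS2, Picard, SAMtools, HISAT2 and fastp on GRCm39, with no version, role or order given. Columns were read as immunoprecipitated because the labels call the tables normalized m6A matrices. How intervals were defined from the replicates is not given in the sources used here. The deposited values are a read signal scaled by the authors to an m6A spike-in: dividing by 1 factor for each library gave back whole reads (100% of values within 1e-06).

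Repeat cover per family was computed with bedtools 2.31.1, with coordinates as deposited. The log2 of signal plus 0.5 was centred per library on repeat-free intervals of the other autosomes. A shift is the difference of group means of library medians of deviations, with no test. Departures were fitted with limma 3.58.1 in R 4.3.3 (trended prior variance, 3 genotypes sharing 1 spread, own-chromosome centre) over 37759 intervals. edgeR 4.0.16 on whole reads, other pseudocounts (0.1 and 2), signal minimums, cover limits and centres, a replicate block and leaving out each library were alternatives. Scaling libraries before adding the pseudocount, and medians of levels, were chosen after seeing the data. The fits were tested on simulated data. Repeat loci with at least 20 reads on average entered the profile as log2 of RPM plus 0.05. Other tools were Python 3.11.15, pandas 2.3.3, numpy 2.4.6 and matplotlib 3.10.9.

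Named intervals were the 5 largest departures in each direction among those called, with libraries apart and at least 10 reads, the 8 brightest, the 3 longest, and the runs. The members and lists were chosen with earlier results of these data known.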

Additional observations from a re-analysis of the deposited data

How the results depend on the processing

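With each library centred on the other autosomes without chromosomes 6 and 11, the shift was 0.33 in KO over WT and -0.51 in ΔcIDR over KO. Centring on all tested intervals, repeats included, gave 0.22 in KO over WT, -0.035 ± 0.077 (SE) in ΔcIDR over WT and -0.25 in ΔcIDR over KO. Medians of levels, without subtracting each interval's mean, gave 0.24 in KO over WT and -0.43 in ΔcIDR over KO. The deposited scale without centring gave all 3 the opposite sign. The values were -0.13 ± 0.28, 0.38 ± 0.060 and 0.51 ± 0.28 (SE) in KO over WT, ΔcIDR over WT and ΔcIDR over KO. The KO over WT value lay within its SE of 0. The other pseudocounts, signal minimums and cover limit, and scaling before the pseudocount, kept the direction of the 3 shifts. They gave 0.27 to 0.31 in KO over WT, -0.19 to -0.17 in ΔcIDR over WT and -0.49 to -0.45 in ΔcIDR over KO. Leaving out 1 library gave 0.28 to 0.31 in KO over WT, -0.19 to -0.15 in ΔcIDR over WT and -0.49 to -0.45 in ΔcIDR over KO. The count of intervals off the shift in KO over WT was 102 with 10 Mb centres, 61 with a replicate block, and 10 to 194 without 1 library. It was 96 to 356 in ΔcIDR over KO and 0 to 2 in ΔcIDR over WT without 1 library, where a genotype left with 1 library was assumed to vary like the others.

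The labels share replicate numbers only. Deviations of same-numbered libraries correlated at -0.15 between ΔcIDR and KO, -0.29 between ΔcIDR and WT and 0.079 between KO and WT, so the numbers were not taken as pairs. The replicate block gave 230 calls in ΔcIDR over KO and 0 in ΔcIDR over WT. Of 20 named calls, edgeR, the 10 Mb centres and scaling before the pseudocount lost 1 each. Several were lost when a library of their comparison was left out. Leaving out a library of the genotype outside the comparison cannot change the size, only the shared spread. Some intervals were named in both KO over WT and ΔcIDR over KO, so the 20 calls are not all separate intervals. No named call reversed under the alternatives run. The causes were not tested. The deposited scale rests on 814 to 1870 spike-in reads a library, and interval depth limits which departures could be called.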
